A study of Mus musculus with 12 samples.

Results

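The 31 genes described here make, release, sense and clear the inhibitory transmitters GABA and glycine. They were chosen as a named list. No measured value set the list, but earlier results of these data were known when it was chosen. Every probe whose annotation carries one of the 31 symbols was taken. All 31 had a probe on the array, out of 27308 genes with a symbol. Of these, 26 genes with 56 probes were bright enough to test, out of 18266 genes tested in all. RNA was measured in the hypothalamus of male C57BL/6 mice, with 3 mice in each of 4 groups. The labels give an age of 6 to 7 weeks, but the study's methods place that age at the start of training, so the age at which tissue was taken is uncertain. The wild-type control group (WT) were littermates of the knockout. The Asmt-knockout control group (KO) carried a 20 bp deletion in both copies of Asmt, made with Cas9 in zygotes and backcrossed for 3 generations. The same genotypes also swam daily, giving exercised WT and the Asmt-knockout exercise group (KE). Asmt encodes the last enzyme of melatonin synthesis. The deletion was present in every tissue from conception.

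GABA is made from glutamate by the glutamic acid decarboxylases, is loaded together with glycine into vesicles by 1 shared transporter, and opens chloride channels built of 5 subunits. GABA also acts on slower receptors that couple to G proteins, while glycine opens a related family of chloride channels. Most hypothalamic nuclei are rich in GABA neurons, which take part in the control of feeding, sleep and stress hormones, whereas fast glycine signalling is best known in the spinal cord and brainstem.

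All 14 hypothalamus markers on a fixed list, such as Hcrt, Pmch and Agrp, passed the detection filter, and only 1 of 6 hindbrain markers did. Of 6 anterior pituitary markers Gh, Prl and Cga did not pass the detection filter, while Tshb (4.68 to 5.11), Lhb (7.13 to 7.66) and Pomc (12.64 to 13.89), which hypothalamic neurons also make, did. The targeted gene could not be checked: the Asmt probe was not well above background on any of the 12 arrays, with log2 signals of 1.83 to 2.49 in all groups. A gene was tested when at least 1 of its probes had a signal well above background in all 3 mice of some group. The 5 genes that failed this were Gabra6, known from cerebellar granule cells, with a signal above background on 2 WT arrays and 1 KE array; Gabrp and Gabrr3, on no array; the glycine receptor gene Glra4, on 1 WT and 1 KO array; and Slc6a5, the glycine transporter of glycine neurons, on 1 exercised WT array. Gabre, the epsilon subunit, passed through the KE arrays alone, being well above background on 8 of the 12 arrays. Values are quantile-normalized log2 signals averaged over the tested probes of a gene. They can be compared between mice but not between genes.

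The arrays lay on 2 slides, which were scanned at separate times. Slide 1 held the 3 WT mice and KO replicates 1 and 2, and slide 2 held KO replicate 3, the 3 exercised WT mice and the 3 KE mice. Across all genes the first principal component carried 42.7% of the variance and separated the slides, with values of -27.9 to -16.7 on slide 1 and 11.04 to 23.1 on slide 2, KO replicate 3 included. The 26 genes had a first component of 41.1% that did not follow the slide, being highest in WT replicate 3 (1.0) and exercised WT replicate 3 (1.92) and lowest in KO replicate 3 (-1.19). Genes were not scaled, so those with a wide spread count most in it, such as Gabrd (SD 0.88 in WT and 1.17 in exercised WT). Single genes, among them Gabra4, Gabrr2 and Gabbr2, did follow the slide. Swimming and slide therefore cannot be told apart in wild-type mice except through the KO group, which alone was on both slides. Fits with the slide as a block are given beside the main differences. Such a fit sets KO replicates 1 and 2 against WT, and KO replicate 3 alone against KE. The comparison of KE with exercised WT lies within slide 2.

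No tested gene of the list had an adjusted p under 0.05 in any comparison in the limma fit over all 18266 genes (with 0.00547% of all genes passing in KE versus WT and 0% in each of the other comparisons). None met the study's screening criterion either, which asked for a difference of 2-fold or more and an unadjusted p no higher than 0.05. Of all genes, 0.175% met it for KO against WT and 0.651% for KE against KO. For exercised WT against WT the share was 1.22%, for KE against exercised WT 0.192%, for KE against WT 1.64% and for the interaction 0.515%. Counts at an unadjusted p of at most 0.05 follow, with the share of all genes in brackets. In KO versus WT, 0 genes were higher (2.68%) and 1 was lower (2.79%). In KE versus KO, 2 were higher (6.95%) and 1 was lower (13.5%). In exercised WT versus WT, 3 were higher (10.6%) and 4 were lower (14%). In KE versus exercised WT, 1 was higher (2.11%) and 0 were lower (5.03%). In KE versus WT, 4 were higher (10.9%) and 3 were lower (17.9%). The test of whether swimming acted differently in the 2 genotypes gave 1 gene with a positive difference (3.21%) and 0 with a negative one (4.85%). Each count of the list is at most 4 of 26 genes and is to be read against those shares. The counts for KE include Glra3, 1 of whose 2 probes entered the test only through the KE arrays. The lower gene of KO versus WT is Abat, 1 of whose 4 probes entered only through the wild-type groups. Abat is also among the 3 lower genes of KE versus WT. Those counts are descriptions. The median log2 difference of the 26 genes was -0.02 for KO minus WT and 0.03 for KE minus KO, beside -0.01 and -0.04 over all genes. For exercised WT minus WT it was 0.01 and for KE minus exercised WT 0.02, beside -0.04 and -0.01.

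**Figure D1:**
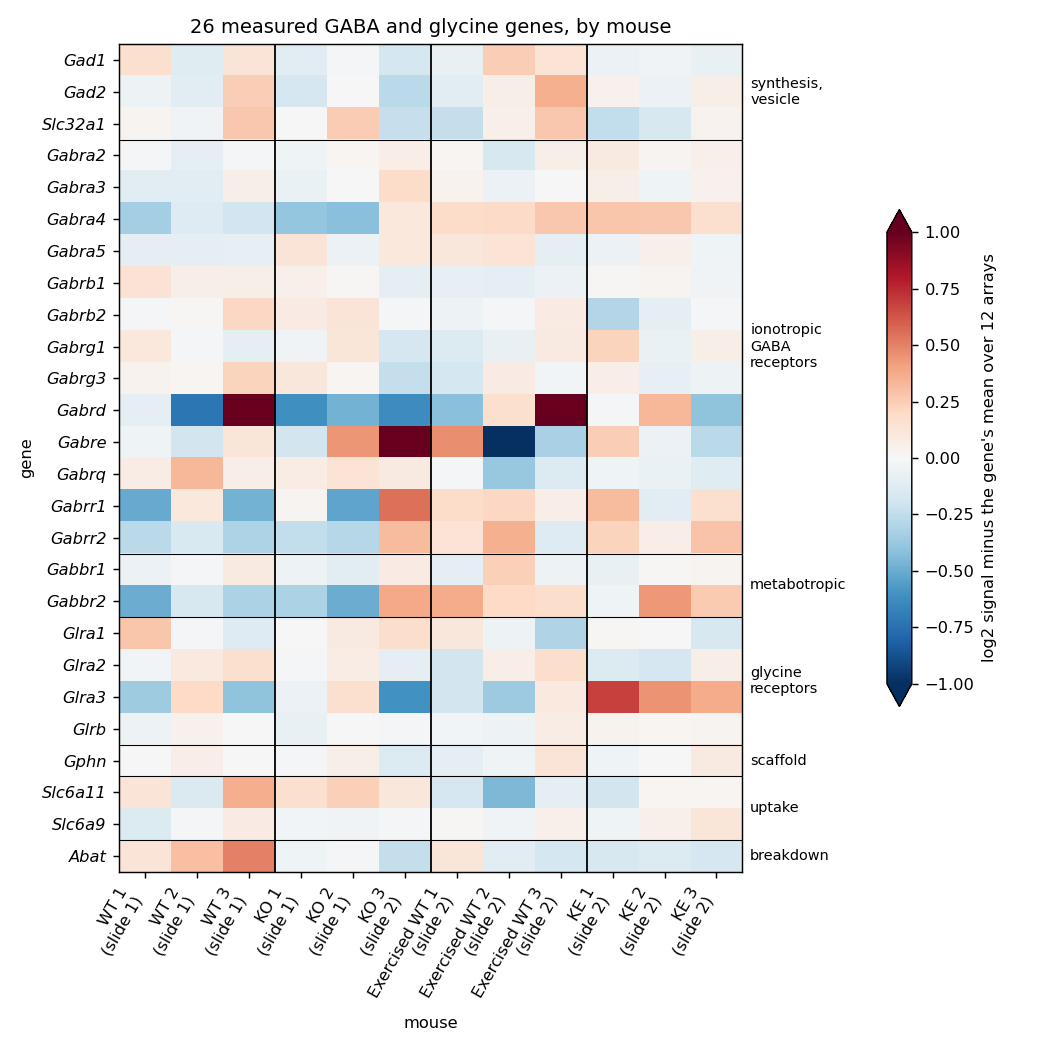
Rows are the 26 tested genes in order of role, columns are the 12 mice with their slide, and colour is the log2 signal minus the gene's own mean over 12 arrays. Gabra4, Gabrr2 and Gabbr2 are low on slide 1 and higher on slide 2, KO replicate 3 included, Glra3 is highest in the 3 KE mice, and Gabrd is highest in WT replicate 3 and exercised WT replicate 3.

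Gad1 and Gad2 encode the enzymes that make GABA, and Slc32a1 the transporter that fills vesicles with GABA and glycine. The log2 signal of Gad1 was 8.78, 8.5 and 8.75 in WT, 8.51, 8.60 and 8.44 in KO, 8.55, 8.87 and 8.76 in exercised WT and 8.57, 8.59 and 8.54 in KE. All groups overlapped. Gad2 was at 9.45, 9.40 and 9.74 in WT, 9.33, 9.51 and 9.23 in KO, 9.38, 9.56 and 9.86 in exercised WT and 9.54, 9.44 and 9.55 in KE. The highest WT and the highest exercised WT value both came from replicate 3. Slc32a1 was at 16.16, 16.10 and 16.40 in WT, 16.13, 16.38 and 15.90 in KO, 15.89, 16.18 and 16.40 in exercised WT and 15.88, 15.97 and 16.16 in KE. Again the groups overlapped, and the same WT and exercised WT mice were the highest of their groups. The log2 differences of KO from WT were -0.15 (SE 0.095) for Gad1, -0.17 (SE 0.129) for Gad2 and -0.08 (SE 0.154) for Slc32a1, and those of KE from KO were 0.05, 0.15 and -0.13, with the same SEs. The slide-blocked differences of KE from KO were 0.12 (SE 0.134), 0.28 (SE 0.181) and 0.10 (SE 0.199), so that of Slc32a1 turned sign. None had an unadjusted p of at most 0.05, and the adjusted p values were 0.839, 0.84 and 0.93 in KO versus WT (limma). In bulk tissue, fewer cells of a type and less RNA per cell cannot be told apart.

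Among the subunits of ionotropic GABA receptors, Gabra4, the alpha4 subunit that often pairs with delta outside synapses, showed the smallest p values for KE against KO and for exercised WT against WT. Its log2 signal was 9.94, 10.15 and 10.09 in WT, 9.90, 9.87 and 10.38 in KO, 10.47, 10.47 and 10.55 in exercised WT and 10.56, 10.55 and 10.44 in KE. Every mouse that swam was above every mouse that did not, and the nearest of those that did not was KO replicate 3. The difference was 0.47 (SE 0.122, adjusted p = 0.131) for KE minus KO and 0.43 (SE 0.122, adjusted p = 0.105) for exercised WT minus WT (limma). With the slide as a block these became 0.14 (adjusted p = 0.743) and -0.07 (adjusted p = 0.931). KO replicate 3 exceeded the mean of KO replicates 1 and 2 by 0.50. In the fit with the block KO differed from WT by -0.18 (adjusted p = 0.802). Without KO replicate 3 the differences were 0.64 and 0.43 (adjusted p = 0.00069 and adjusted p = 0.00328), but all mice that did not swim were then on slide 1 and all that swam on slide 2.

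The difference in Gabra4 rested on 1 of its probes. The 30 bases that open each 60-base probe are shown for the genes whose probes parted, because the differences were seen at some probes of a gene and not at others. The Gabra4 probes lie at chr5:71962623-71962682 and chr5:72046554-72046613 of build mm9, both on the minus strand.
Gabra4 A_51_P393124, designed to the RefSeq mRNA: ttggagcaagagaaatagagctaggagaga
Gabra4 A_55_P2732683, designed to an Ensembl transcript: gaggctctgtcttcccagaagggtttttaa
The second probe read 8.54, 9.10 and 8.76 in WT, 8.42, 8.34 and 9.60 in KO, 9.69, 9.57 and 9.56 in exercised WT and 9.89, 9.69 and 9.57 in KE. All 5 slide 1 arrays were below all 7 slide 2 arrays. The first probe had means of 11.32 in both WT and KE, 11.31 in KO and 11.38 in exercised WT, with SDs of 0.09 to 0.15. Its differences were 0.01 for KE minus KO and 0.06 for exercised WT minus WT.

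Gabra2, the alpha2 subunit, as a mean of 4 probes differed by -0.01 between KE and KO and by 0.08 between KE and exercised WT with the slide as a block, yet its probes also parted. A pair of them overlap by 29 bases, at chr5:71352306-71352365 and chr5:71352275-71352334 of mm9 on the minus strand. The shared bases are in capitals, in the last 30 bases of the first and the opening 30 of the second.
Gabra2 A_55_P2177351, designed to the RefSeq mRNA: tTCAGCTCACTTCAATCATTGGAAACTACC
Gabra2 A_55_P2027900, designed to an Ensembl transcript: TCAGCTCACTTCAATCATTGGAAACTACCt
KO replicate 3 was 0.35 below the mean of the other KO mice at the first of these probes, a log2 difference of -0.35, and 0.98 above it at the second. The second read 9.57, 9.82 and 9.81 in WT, 9.40, 9.51 and 10.44 in KO, 10.29, 9.86 and 10.02 in exercised WT and 10.44, 10.43 and 10.40 in KE. Its 5 slide 1 arrays were all below its 7 slide 2 arrays.

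**Figure D2:**
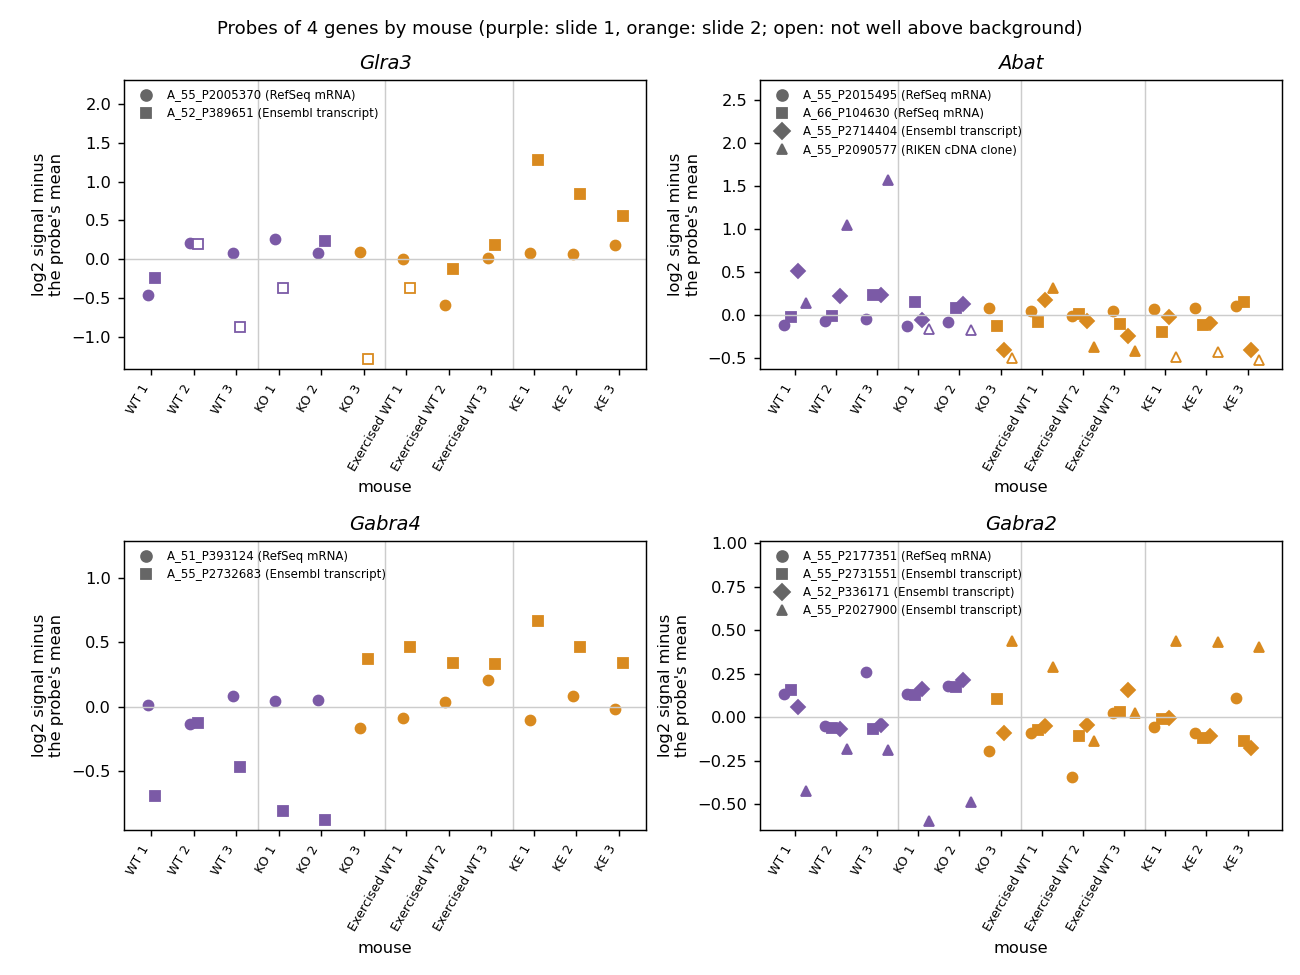
Each point is the log2 signal of 1 probe in 1 mouse minus that probe's mean over 12 arrays, for Glra3, Abat, Gabra4 and Gabra2. Symbols mark the probe and the record it was designed to, purple is slide 1 and orange slide 2, and open points were not well above background. In each gene the probes spread unequally across mice, and among the probes plotted for Glra3 and Abat the open points lie at A_52_P389651 and A_55_P2090577, which spread most.

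Gabrr2, a rho subunit best known from the retina, was at 8.91, 9.03 and 8.87 in WT, 8.94, 8.90 and 9.50 in KO, 9.32, 9.54 and 9.06 in exercised WT and 9.41, 9.25 and 9.47 in KE. Exercised WT did not overlap WT, and KO replicate 3 was among the highest arrays. The difference of exercised WT from WT was 0.37 (SE 0.163, adjusted p = 0.2, limma), and -0.21 (adjusted p = 0.894) with the slide as a block. KE minus KO went from 0.26 to -0.12 with the block. The other rho subunit, Gabrr1, had group means of 5.07 ± 0.34 (WT), 5.38 ± 0.54 (KO), 5.51 ± 0.07 (exercised WT) and 5.48 ± 0.22 (KE), as mean ± SD of n = 3 mice. Its difference of exercised WT from WT was 0.44 (SE 0.251), and -0.36 (SE 0.352) with the slide as a block. These are descriptions, since 1 of its 2 probes entered through exercised WT and KE, where it was highest, being well above background on 2 WT and 2 KO arrays. At the other probe the difference was 0.22 (SE 0.179). KO replicate 3 exceeded the other KO mice by 0.58 at Gabrr2 and by 0.80 at Gabrr1.

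Gabrb1, the beta1 subunit, had its highest values in WT. They were 12.63, 12.54 and 12.54 in WT, 12.54, 12.50 and 12.38 in KO, 12.40, 12.39 and 12.43 in exercised WT and 12.49, 12.51 and 12.45 in KE. Exercised WT lay below WT without overlap, by a log2 difference of -0.16 (SE 0.052, adjusted p = 0.117, limma), while KE differed from KO by 0.01. The slide-blocked values were -0.03 (SE 0.074, adjusted p = 0.957) and 0.10 (SE 0.058, adjusted p = 0.701). The difference between these differences was 0.17 (adjusted p = 0.593), and 0.13 (adjusted p = 0.482) with the slide as a block. Without KO replicate 3, KE replicate 1, KE replicate 2 or exercised WT replicate 2 no gene of the list had an unadjusted p of at most 0.05 in the interaction. Gabrb2, the beta2 subunit, was at 9.45, 9.49 and 9.34 in KO and 9.07, 9.26 and 9.34 in KE, overlapping at replicate 3 of each, with WT at 9.35, 9.37 and 9.57 and exercised WT at 9.31, 9.34 and 9.44. KE differed from KO by -0.20 (SE 0.086, adjusted p = 0.229, limma), and by -0.11 (adjusted p = 0.872) with the slide as a block.

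Gabrq, the theta subunit, which is typical of hypothalamic and brainstem neurons, was at 9.85, 10.11 and 9.83 in WT, 9.85, 9.91 and 9.86 in KO, 9.76, 9.40 and 9.64 in exercised WT and 9.73, 9.71 and 9.65 in KE. All 6 mice that swam were below all 6 that did not, and here KO replicate 3 (-0.02 from the other KO mice) stayed with its group. The separation held at probe A_52_P174884, with means of 8.02 (WT), 7.92 (KO), 7.53 (exercised WT) and 7.68 (KE). At the brighter probe A_66_P110675 the mice that swam overlapped those that did not. Its means were 11.84 (WT), 11.83 (KO), 11.66 (exercised WT) and 11.71 (KE). Exercised WT differed from WT by -0.33 (SE 0.097, adjusted p = 0.107, limma) and KE from KO by -0.17 (adjusted p = 0.324). With the slide as a block these became -0.32 (SE 0.18, adjusted p = 0.827) and -0.16 (SE 0.141).

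Gabrd, the delta subunit of receptors outside the synapse, which carry tonic inhibition, had the widest spread between mice of 1 group among the 26 genes. It was at 7.20, 6.57 and 8.30 in WT, 6.67, 6.81 and 6.66 in KO, 6.87, 7.45 and 9.13 in exercised WT and 7.28, 7.62 and 6.89 in KE. Replicate 3 of WT and replicate 3 of exercised WT stood above all other mice, and KE lay above KO without overlap. KE exceeded KO by 0.55 (SE 0.554, adjusted p = 0.588), and KO differed from WT by -0.64 (adjusted p = 0.849, limma). The slide-blocked values were 0.61 (SE 0.827) and -0.61 (SE 0.654). The same mice had the highest mean of 8 striatum markers, all of them detected, 8.68 in WT replicate 3 and 9.28 in exercised WT replicate 3, against 8.16 to 8.56 in the other mice. In exercised WT replicate 3, 6 of the 8 were at their highest over all mice, and Drd2 (5.82) and Gpr6 (9.0) were not. In WT replicate 3, Drd1 and Ppp1r1b were second to that mouse, while Rgs9 was the lowest of the WT group at 9.22, Drd2 at 5.79 was below WT replicate 2 at 5.98 and Gpr6 at 8.86 was below WT replicate 1 at 8.96. Adora2a, a defining marker of striatal neurons, was at 6.56 in WT replicate 3 and 8.07 in exercised WT replicate 3, and at 6.99 in exercised WT replicate 2 and 5.19 to 5.95 in the others. Drd1, the dopamine D1 receptor, was at 8.73 and 9.64 in those mice and at 8.02 to 8.56 in the others, and Pde10a, the brightest of the 8 by its own signal, at 10.37 and 10.96, with the others between 10.02 and 10.40. The mean of 7 thalamus markers was 8.76 and 9.0 in them and 8.33 to 8.80 in the others, KE replicate 2 being above WT replicate 3, and the mean of 14 hypothalamus markers was lowest in them, at 11.67 and 11.63. The mean of 8 transcription factors of GABA neurons was also highest in these mice, at 9.25 and 9.28 against 8.53 to 9.12 in the others, and Lhx8 among them was at 9.39 and 9.49 against 6.92 to 8.91. Other lists moved between groups as well. All 7 choroid plexus markers were higher in exercised WT than in WT (median log2 difference 0.25, slide-blocked 0.39) and all 7 were lower in KE than in exercised WT (-0.22). Their mean was 8.12 (WT), 8.15 (KO), 8.55 (exercised WT) and 8.04 (KE), and it ran from 7.72 to 8.77 in the 3 KO mice. Clic6 was the brightest of them, and Ttr, their defining gene, was between 3.68 and 8.66 over the 12 mice. The 5 cortex markers tested of 7, Slc17a7 and Emx1 not having passed the detection filter, were all higher in exercised WT than in WT (median 0.37) and in KE than in KO (0.22). The slide-blocked medians were -0.34 and -0.32. Tbr1 was the brightest of them, and their mean was 7.22 (WT), 7.03 (KO), 7.54 (exercised WT) and 7.32 (KE). All 8 striatum markers were lower in KE than in exercised WT (median -0.46). In KO, 5 of 6 endothelium markers (median -0.19, slide-blocked -0.19) and 6 of 7 oligodendrocyte markers (-0.14, slide-blocked -0.12) were lower than in WT. In KE, 5 of 7 microglia markers (-0.07, slide-blocked -0.002) and 10 of 14 hypothalamus markers (-0.14, slide-blocked -0.10) were lower than in KO. With the block 4 of the 7 microglia markers and 10 of the 14 hypothalamus markers were lower. Of the 7 oligodendrocyte markers 6 were higher in KE than in KO (0.05, slide-blocked 0.07). These marker counts are to be read against all 18266 genes. Of those, 9693 were lower in KO than in WT, and 10991 were lower and 7275 higher in KE than in KO. In exercised WT 7594 were higher than in WT, and in KE 10014 were lower than in exercised WT. The part of neighbouring tissue in the Gabrd, Gad2, Slc32a1 and other values of the list was not tested. Without both mice, a setting chosen after seeing the data, the counts at an unadjusted p of at most 0.05 were 1 gene for KO against WT, 4 for KE against KO, 6 for exercised WT against WT and 1 for KE against exercised WT, beside 757, 3240, 2631 and 1046 of all 18266 genes.

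**Figure D3:**
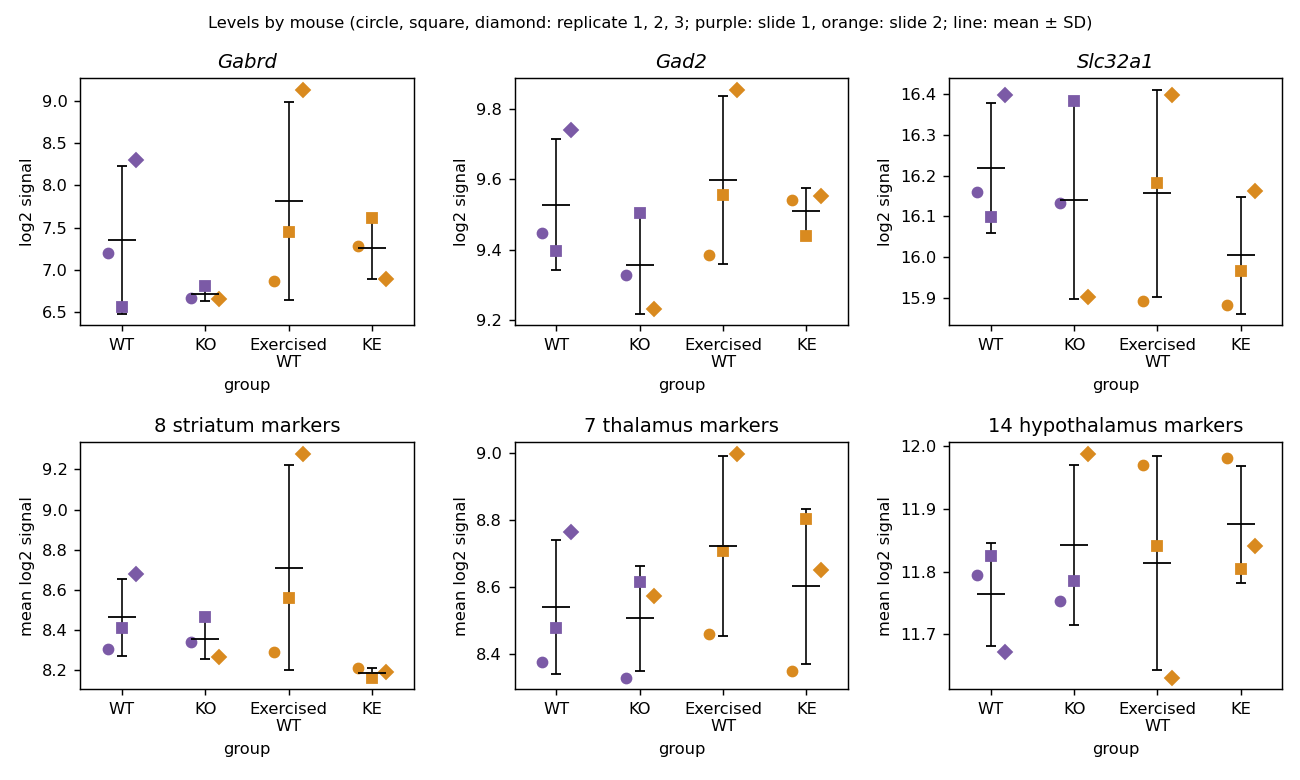
Log2 signal of Gabrd, Gad2 and Slc32a1 and mean log2 signal of 8 striatum, 7 thalamus and 14 hypothalamus markers, by group. Circles, squares and diamonds are replicates 1, 2 and 3, purple is slide 1, orange is slide 2, and lines are the mean ± SD of 3 mice. The diamonds of WT and exercised WT are at the top of the Gabrd, Gad2, Slc32a1, striatum and thalamus panels within their groups, and at the bottom of the hypothalamus panel.

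Of the other tested ionotropic subunits, Gabra2, Gabra3, Gabra5, Gabrg1 and Gabrg3 had log2 differences between -0.13 and 0.15 over the 4 comparisons other than KE versus WT and the interaction, and none had an unadjusted p of at most 0.05. The slide-blocked values were wider, from -0.18 for Gabra3 in exercised WT versus WT to 0.24 for Gabrg1 in KE versus KO. The Gabrg1 values are descriptions, because 1 of its probes entered through KE, where it was highest, and was well above background on no KO array, 1 WT array and 2 exercised WT arrays, and another was above background on 2 KO and 2 exercised WT arrays. Gabra5, the alpha5 subunit, was at 10.89, 10.91 and 10.91 in WT and at 11.12, 10.93 and 11.10 in KO, above WT without overlap by 0.15 (SE 0.074, adjusted p = 0.839, limma). Gabre had means of 4.36 ± 0.15 (WT), 4.83 ± 0.63 (KO), 4.01 ± 0.88 (exercised WT) and 4.36 ± 0.26 (KE), as mean ± SD of n = 3 mice. The spread was widest in the KO and exercised WT groups. KE minus KO was -0.47 (SE 0.411), and -1.1 (SE 0.537, adjusted p = 0.637) with the slide as a block.

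Gabbr1 and Gabbr2 form the metabotropic GABA B receptor, Gabbr1 binding GABA and Gabbr2 coupling to the G protein. Gabbr2 was at 8.0, 8.34 and 8.18 in WT, 8.18, 8.0 and 8.87 in KO, 8.87, 8.70 and 8.68 in exercised WT and 8.46, 8.93 and 8.76 in KE. All 5 arrays of slide 1 were below all 7 of slide 2, and KO replicate 3 exceeded the other KO mice by 0.78. Exercised WT exceeded WT by 0.57 (SE 0.206, adjusted p = 0.142, limma), and the difference was -0.21 (adjusted p = 0.905) with the slide as a block. KE minus KO was 0.36 (SE 0.206), and -0.16 (SE 0.183) with the block. Its partner Gabbr1 was at 12.30 ± 0.08 (WT), 12.27 ± 0.10 (KO), 12.33 ± 0.18 (exercised WT) and 12.29 ± 0.06 (KE), as mean ± SD of n = 3 mice, and differed by -0.04 to 0.02 in the 4 comparisons, with an SE of 0.091, and by -0.145 (SE 0.154) in exercised WT versus WT with the block.

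Gabbr2 and Gabrr2 were both low in WT and in KO replicates 1 and 2 and higher in KO replicate 3, so the sequence before their starts is shown. These are the 250 bases upstream of the RefSeq start in build GRCm38.p6, at chr4:46991715-46991964 on the minus strand for Gabbr2 and chr4:33062862-33063111 on the plus strand for Gabrr2, with CG dinucleotides in capitals.
Gabbr2: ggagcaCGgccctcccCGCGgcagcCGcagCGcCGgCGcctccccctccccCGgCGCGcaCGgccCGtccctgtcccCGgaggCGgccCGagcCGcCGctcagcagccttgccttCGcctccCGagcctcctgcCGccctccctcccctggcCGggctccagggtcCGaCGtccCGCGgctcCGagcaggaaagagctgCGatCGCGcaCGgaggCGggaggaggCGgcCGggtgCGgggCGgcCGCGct
Gabrr2: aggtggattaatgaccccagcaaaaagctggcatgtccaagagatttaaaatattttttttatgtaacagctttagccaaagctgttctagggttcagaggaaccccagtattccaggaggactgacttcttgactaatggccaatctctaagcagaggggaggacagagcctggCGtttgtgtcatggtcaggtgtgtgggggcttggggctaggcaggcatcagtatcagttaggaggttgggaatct
The Gabbr2 stretch held 37 CG dinucleotides, the most among the 35 upstream stretches of 28 genes of the list in the table, and the Gabrr2 stretch held 1. The median was 9 over those 35 stretches and 6 over all 32851 in the table. Among other genes of the list, the counts were 12 for Gabra4, 4 for Glra3, 19 for Gabrq and 25 for Slc6a11.

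Glycine receptors were represented by the channel subunits Glra1, Glra2 and Glra3 and by Glrb, which anchors them at synapses. Glra3 was at 4.87, 5.43 and 4.82 in WT, 5.16, 5.38 and 4.62 in KO, 5.04, 4.86 and 5.32 in exercised WT and 5.90, 5.67 and 5.60 in KE. The 3 KE mice were above all 9 others, which overlapped one another. KE exceeded KO by 0.67 and exercised WT by 0.65 (SE 0.217 each), while exercised WT differed from WT by 0.03 and KO from WT by 0.01. Both comparisons of KE share its mice. With the slide as a block KE exceeded KO by 1.1 (SE 0.25) and KO exceeded WT by 0.23 (SE 0.198), and exercised WT exceeded WT by 0.69 (SE 0.319). In that fit the difference between KE and KO met the screening criterion, as 0.0876% of all genes did in that direction, and KO replicate 3, on which the estimate rests, was the lowest array. KE exceeded exercised WT, within slide 2, by the same 0.65 (SE 0.177). The difference in response between the genotypes was 0.63 (SE 0.307), and 0.42 (SE 0.265) with the block. All of these are descriptions, since a probe of the gene was admitted through KE, as the probes show.

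Only 1 of the 2 Glra3 probes carried the difference of KE from KO. They lie at chr8:58522894-58522953 and chr8:58604090-58604149 of mm9, on the plus strand.
Glra3 A_52_P389651, designed to an Ensembl transcript: acaaccattgtcagattatcacacaataca
Glra3 A_55_P2005370, designed to the RefSeq mRNA: ttctactgggttatctataaaatccttagg
The first read 4.09, 4.53 and 3.45 in WT, 3.96, 4.56 and 3.03 in KO, 3.96, 4.21 and 4.52 in exercised WT and 5.61, 5.17 and 4.89 in KE. It was well above background on all 3 KE arrays but on 1 WT, 1 KO and 2 exercised WT arrays. It therefore entered the test through KE, the group in which it was highest, and no test is read from it. The second, well above background on all 12 arrays, had means of 6.06 ± 0.35 (WT), 6.26 ± 0.10 (KO), 5.92 ± 0.35 (exercised WT) and 6.23 ± 0.06 (KE), as mean ± SD of n = 3 mice. At the second probe KE differed from KO by -0.03 (SE 0.191) and from exercised WT by 0.30 (SE 0.191). There KE lay above exercised WT without overlap, while it overlapped KO. Glra1, Glra2 and Glrb differed by -0.14 to 0.05 in the 4 comparisons, and by -0.25 (Glra1, exercised WT versus WT) to 0.07 with the slide as a block. Gphn, the scaffold that holds glycine and GABA receptors at synapses, differed by -0.06 to 0.05, and by -0.003 to 0.16 with the block, and 1 of its 2 probes was annotated to the opposite strand. At the probe on the gene's own strand, Gphn was at 11.95 ± 0.06 (WT), 11.91 ± 0.11 (KO), 12.06 ± 0.05 (exercised WT) and 12.16 ± 0.03 (KE), as mean ± SD of n = 3 mice. There KE differed from KO by 0.25 (SE 0.065, adjusted p = 0.143 over all probes, limma), against -0.145 (SE 0.155) at the probe of the opposite strand. Single probes were fitted without the slide. KO replicate 3, on slide 2, differed from the mean of KO replicates 1 and 2 by 0.20 at the first of these probes. At the probe of the opposite strand it differed by -0.51.

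Abat encodes the transaminase that breaks GABA down. It was at 8.49, 8.66 and 8.86 in WT, 8.31, 8.35 and 8.12 in KO, 8.48, 8.25 and 8.18 in exercised WT and 8.20, 8.22 and 8.19 in KE. The WT mice were above all 9 others. KO differed from WT by -0.41 (SE 0.105) and by -0.34 (SE 0.111) with the slide as a block, which are descriptions, since a probe of the gene was admitted through the wild-type groups. Exercised WT differed from WT by -0.37 (SE 0.105, adjusted p = 0.107), and by -0.16 (adjusted p = 0.905) with the block. Both comparisons share the WT mice. KE differed from KO by -0.06 (adjusted p = 0.774), and by 0.08 (SE 0.141) with the block.

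The 4 Abat probes disagreed as well. The dimmest and the brightest lie at chr16:8603069-8603128 and chr16:8621576-8621635 of mm9, on the plus strand.
Abat A_55_P2090577, designed to a RIKEN cDNA clone: ctcaattttttctgccataaatcgttccat
Abat A_55_P2015495, designed to the RefSeq mRNA: ggtgaccacgtgaacagttccatgaattaa
The first read 4.42, 5.32 and 5.85 in WT, 4.12, 4.11 and 3.78 in KO, 4.60, 3.90 and 3.86 in exercised WT and 3.79, 3.85 and 3.75 in KE. It was well above background on all WT and all exercised WT arrays and on no KO or KE array, so for WT over KO only a bound holds, at least 1.92-fold, where a KO array's signal was replaced by the dimmest signal called well above background there whenever that was higher. It entered the test through the wild-type groups, so no test of WT against KO is read from it. The second had means of 15.46 ± 0.04 (WT), 15.49 ± 0.11 (KO), 15.56 ± 0.03 (exercised WT) and 15.62 ± 0.02 (KE), as mean ± SD of n = 3 mice, and KO differed from WT by 0.03 (SE 0.059). Of the other probes, A_55_P2714404, designed to an Ensembl transcript, differed by -0.43 (SE 0.163) in KO versus WT and A_66_P104630, designed to the RefSeq mRNA, by -0.03 (SE 0.11).

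Slc6a11, the GABA transporter of astrocytes, was at 12.45, 12.19 and 12.69 in WT, 12.48, 12.57 and 12.44 in KO, 12.16, 11.88 and 12.23 in exercised WT and 12.14, 12.35 and 12.35 in KE. Exercised WT overlapped WT, and KE lay below KO without overlap. Exercised WT differed from WT by -0.36 (SE 0.129, adjusted p = 0.144, limma) and KE from KO by -0.22 (adjusted p = 0.355). With the slide as a block these were -0.28 (adjusted p = 0.886) and -0.16 (SE 0.189). Slc6a9, the glycine transporter of glia, differed by 0.00 to 0.07 in size in the 4 comparisons, with an SE of 0.063.

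When only probes designed to RefSeq mRNAs were averaged, a setting chosen after seeing the data, Abat differed by less than 0.01 in size in KO versus WT and by -0.01 in exercised WT versus WT. Gabra4 then differed by 0.01 between KE and KO and by 0.06 between exercised WT and WT. Glra3 differed by -0.03 between KE and KO and by 0.30 between KE and exercised WT. The list then had 0 genes with an unadjusted p of at most 0.05 when KO was set against WT or KE against exercised WT. It had 1 higher and 1 lower for KE against KO, 2 higher and 3 lower for exercised WT against WT and 1 for the interaction. In the same order the counts were 758, 1196, 3469, 3970 and 1264 among all 15276 genes. Gabbr2, Gabrr2, Gabrb1, Gabrq and Slc6a11 had RefSeq probes alone, so that setting could not alter them.

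The same parting was seen inside the KO group, where genotype and treatment are shared and only mouse and slide differ. KO replicate 3 departed from the mean of KO replicates 1 and 2 by more than 0.5 log2 at 6 of 37 tested probes of the list designed to RefSeq mRNAs (16.2%), at 5 of 11 designed to Ensembl transcripts (45.5%) and at 2 of 8 designed to other records (25%). Over all tested probes the shares were 9.88% of 22424, 32% of 3958 and 30.2% of 8848. At the list's RefSeq probes these were Gabre, both probes of Gabrr1, Gabrr2, Gabbr2 and 1 of 3 probes of Gabbr1, all higher in KO replicate 3. The slide, the mouse and the hybridization cannot be told apart in this 1 array.

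**Figure D4:**
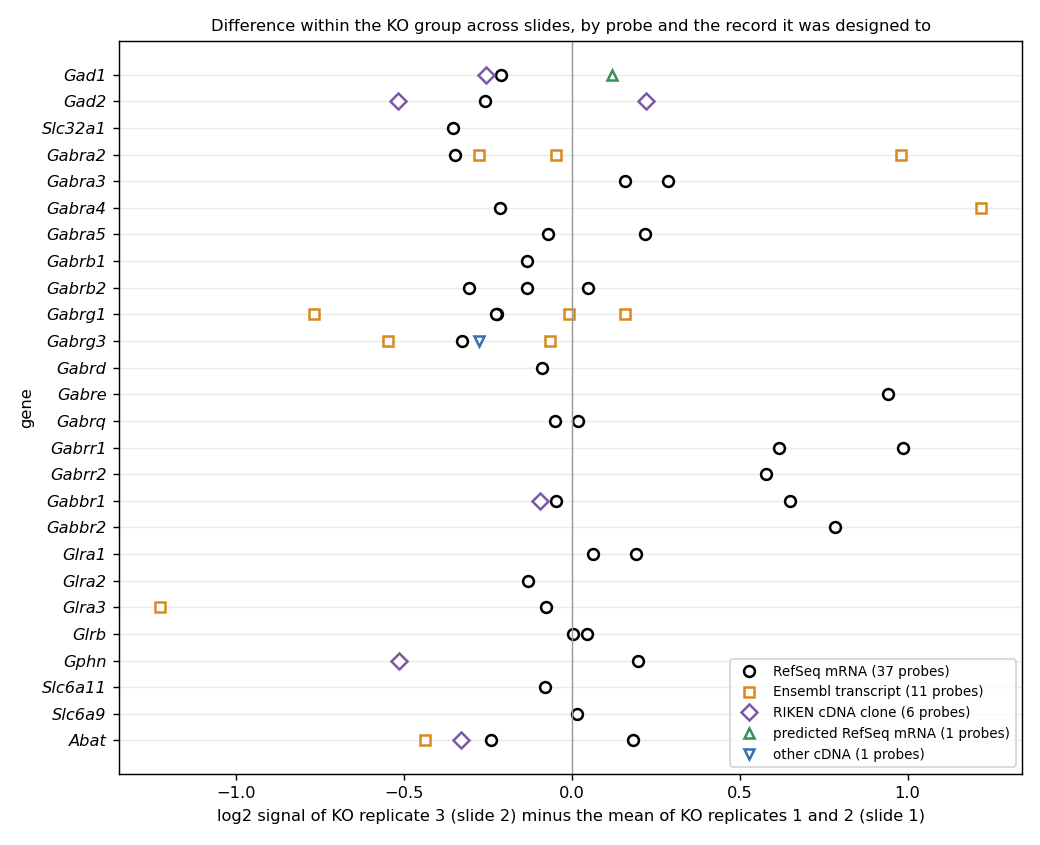
Each point is 1 of the 56 tested probes, placed by the log2 signal of KO replicate 3 (slide 2) minus the mean of KO replicates 1 and 2 (slide 1), with the gene on the vertical axis and the kind of record the probe was designed to as symbol. Gabra4, Gabra2 and Glra3 each have 1 Ensembl probe near or past 1 in size while their RefSeq probe lies between -0.35 and -0.08.

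With the slide in the fit as a block, 0 genes of the list were higher (3.36% of all genes) and 2 were lower (2.5%) at an unadjusted p of at most 0.05 in KO versus WT, namely Abat and Gabra4. For KE against KO, Glra3 alone was higher (3.95%) and 0 were lower (4.28%). For exercised WT against WT, 0 were higher (2.98%) and 0 were lower (3.01%). For KE against exercised WT, Glra3 alone was higher (3.7%) and 0 were lower (6.72%). The Glra3 counts rest on the probe that entered through KE and the Abat count on the probe that entered through the wild-type groups, and they are descriptions. None of the list had an adjusted p under 0.05 (limma), while 0.0109%, 0.0164%, 0% and 0.00547% of all genes did.

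Leaving out KO replicate 3 instead changed the calls. Gabra4, Gabrr2 and Gabbr2 then differed between KE and KO with an adjusted p under 0.05, by 0.64, 0.46 and 0.62, as did 21.5% of all genes. Between exercised WT and WT, Gabra4 (0.43), Gabbr2 (0.57), Gabrb1 (-0.16) and Abat (-0.37) passed, as did 14.5% of all genes (limma). Without that array swimming and slide cannot be told apart in either genotype.

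**Figure D5:**
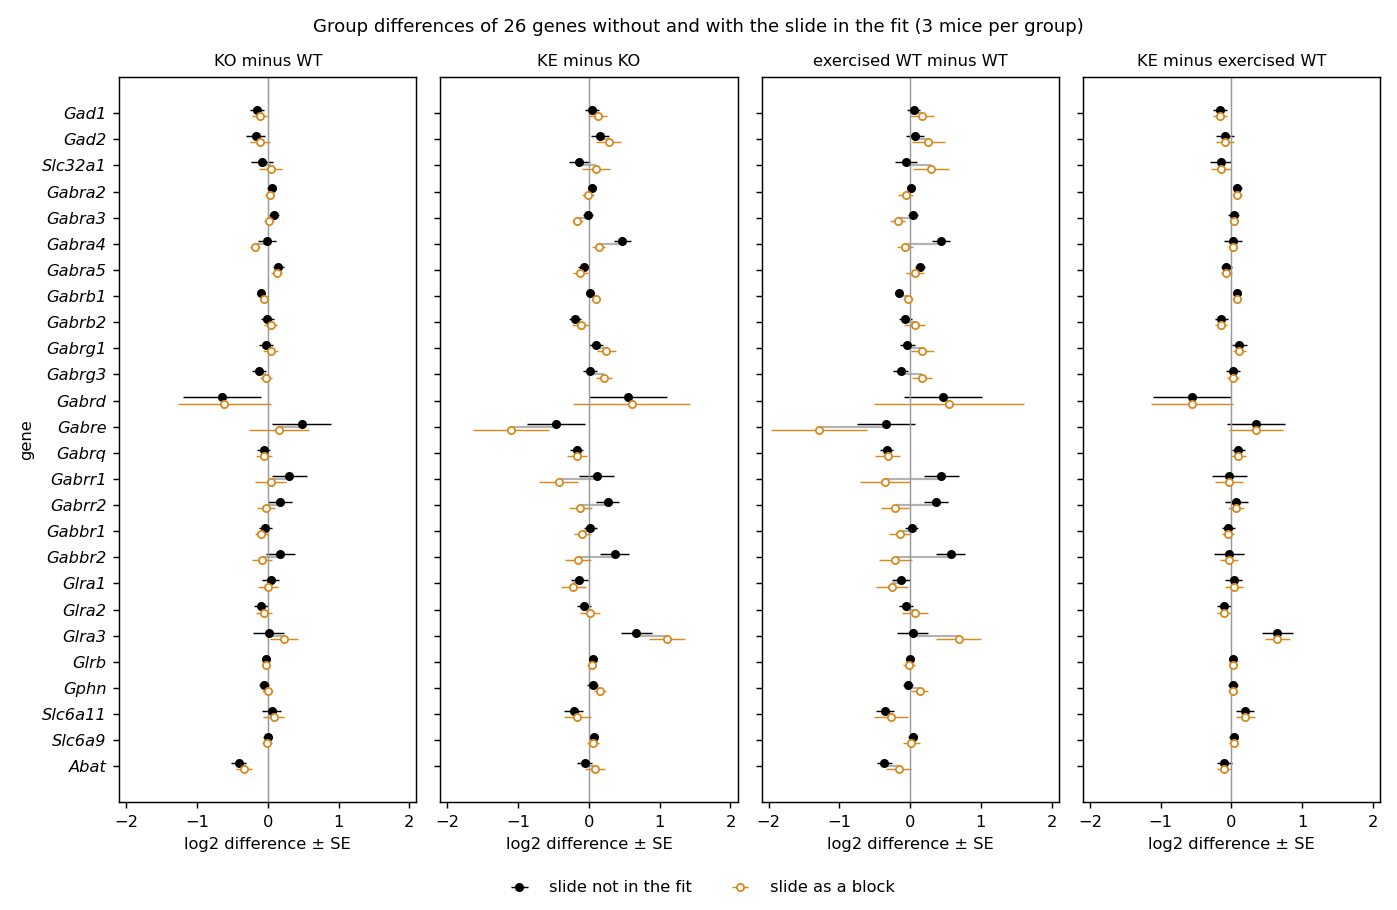
Log2 difference ± SE of the 26 genes in 4 comparisons of 3 mice against 3, without the slide (filled) and with the slide as a block (open). Gabra4, Gabrr2 and Gabbr2 move from above 0 to just below it in exercised WT minus WT. KE and exercised WT all lie on slide 2, so the block cannot move that difference, and the Glra3 points include a probe that was admitted through KE.

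Genes whose groups did not overlap were also counted. In KO versus WT, 1 gene of the list lay wholly above (3.92% of all genes) and 2 wholly below (4.99%), namely Gabra5, then Gabrb1 and Abat. Between KE and KO, Gabra4, Gabrd, Glra3 and Glrb lay above (4 genes, 5.86%) and Gabrq and Slc6a11 below (2 genes, 16.4%). Between exercised WT and WT, Gabra4, Gabrr2 and Gabbr2 lay above (3 genes, 14.2%) and Gabrb1, Gabrq and Abat below (3 genes, 21.6%). Between KE and exercised WT, Gabrb1 and Glra3 lay above (2 genes, 7.46%) and 0 below (11.9%). Between KE and WT, Gabra2, Gabra4, Gabra5, Gabrr2, Gabbr2 and Glra3 lay above (6 genes, 14.6%) and Gabrb1, Gabrb2, Gabrq and Abat below (4 genes, 27.7%). Glra3 and Abat are in these counts as descriptions.

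A second list held 41 partner genes of inhibitory transmission, such as chloride transporters, receptor anchors and the enzymes and carriers that supply glutamine and serine, and 40 were tested. At an unadjusted p of at most 0.05, 2 were lower in KO than in WT and 0 higher. In KE, 1 was higher than in KO and 4 were lower. In exercised WT, 1 was higher than in WT and 5 were lower, and in KE 2 were higher than in exercised WT and 2 lower. As shares of the 40 these were 0% and 5% for KO against WT, 2.5% and 10% for KE against KO, 2.5% and 12.5% for exercised WT against WT, and 5% and 5% for KE against exercised WT, beside the shares of all genes given above for higher and lower genes. The median differences were -0.02, -0.06, -0.07 and -0.03 in that order. Under the slide block the medians were 0.01, -0.004, 0.03 and -0.03. The counts fell to 1 higher and 1 lower for KE against KO and to 0 and 1 for exercised WT against WT. They stayed at 0 and 2 for KO against WT and became 3 and 2 for KE against exercised WT. None had an adjusted p under 0.05 (limma). Slc38a5, which carries glutamine, was at 9.99, 10.35 and 9.83 in WT, 9.47, 9.79 and 9.59 in KO, 9.41, 9.47 and 9.51 in exercised WT and 9.86, 9.69 and 9.98 in KE. WT was above both KO and exercised WT without overlap, and KE lay above exercised WT. KO differed from WT by -0.44 (adjusted p = 0.839), exercised WT from WT by -0.59 (adjusted p = 0.1) and KE from exercised WT by 0.38 (adjusted p = 0.664, limma). Under the slide block the first and second were -0.42 (SE 0.154) and -0.56 (SE 0.249). The interaction was 0.82 (SE 0.187, adjusted p = 0.445), and 0.80 with the slide as a block.

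Kctd8, an auxiliary subunit of the GABA B receptor, was at 9.61, 9.75 and 9.82 in WT, 9.77, 9.73 and 9.49 in KO, 9.60, 9.64 and 9.71 in exercised WT and 9.25, 9.32 and 9.39 in KE. The KE mice were below all 9 others. KE differed from KO by -0.35 (SE 0.082, adjusted p = 0.121, limma) and from exercised WT by -0.33 (SE 0.082, adjusted p = 0.525). The first was -0.17 under the slide block (SE 0.088, adjusted p = 0.644). In the other named partners, the chloride channel gene Clcn2 differed by -0.16 between KO and WT (adjusted p = 0.839) and by 0.15 between KE and KO (adjusted p = 0.18), and Plcl2, which takes part in GABA A receptor trafficking, by -0.16 between KE and KO (adjusted p = 0.175). With the block these were -0.12, 0.25 and -0.04. In exercised WT versus WT, Kctd12, another GABA B auxiliary subunit, differed by 0.23 (adjusted p = 0.118), and by 0.09 with the block. In KE versus exercised WT, Phgdh, the first enzyme of serine synthesis, differed by 0.12 (adjusted p = 0.685) and the amino acid carrier Slc38a2 by -0.26 (adjusted p = 0.685).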

How the data were processed

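Hypothalamus RNA of 12 mice was read on 1-color Agilent arrays, with 1 array per mouse and groups and replicates as the labels give them. The labels do not say more of how replicates were drawn, so p-values measure only the spread between these samples. The authors deposited the scanner output, in which the intensity of each spot was background-subtracted by Agilent Feature Extraction 10.7.1.1 per the labels, and log2 values that GeneSpring had quantile-normalized. The authors' deposited lists for 4 comparisons (fold changes, p-values and 24 columns of values per sample) were not used.

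Non-control spots without outlier flags were put on the log2 scale, averaged per probe and quantile-normalized over 12 arrays. The share of spots well above background was 61.6% to 67.9% per array and 0 were saturated, and the number of arrays limits the precision. Probes that were so in all 3 mice of any group (35230 of 56605) were kept and averaged per symbol. The model, in limma 3.58.1 (R 4.3.3), had a mean for each group over all 12 arrays, with Benjamini-Hochberg adjustment over 18266 genes. Alternatives were 75th percentile scaling, normexp background correction (offset 50), the values normalized by the authors, other detection filters, the brightest probe, the methods' t-test, a 2-group fit, array weights, outlier spots kept, slide or replicate blocks and leaving out each array. RefSeq probes alone and leaving out 2 arrays were added after the data were seen. The fit was tested on simulated data, counting 2-fold changes found at an adjusted p under 0.05 (limma). For exercised WT versus WT it found 93 of 100 without a slide effect and 54 of 100 with a slide effect and the block. False calls among 18259 genes were 18 and 4. With the block it found 81 of 100 for KO versus WT, 74 for KE versus KO and 93 for KE versus exercised WT. Blocked fits of exercised WT versus WT can thus miss many 2-fold changes.

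The genes and lists, and the rule for those given mouse by mouse, were chosen with earlier results of these data known. By that rule, every gene of the list is accounted for, values in every mouse are given for genes with an unadjusted p of at most 0.05 in KO versus WT, KE versus KO, exercised WT versus WT, KE versus exercised WT or the interaction, and for Gad1, Gad2 and Slc32a1, and the partner genes named are up to 2 of the smallest p in each direction per comparison. A partner gene that this rule names and a marker gene are not reported here. Gabrd, Gabra5, Gabra2 and the probe values were added after seeing them. Positions of probes are given on build mm9 as the array annotation has them, with no gene model used here. Upstream sequences are from RefSeq, GRCm38.p6. Figures were drawn with Python 3.11.15 and matplotlib 3.10.9.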

Additional observations from a re-analysis of the deposited data

Results flagged for a closer look

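Gabrb1, the beta1 subunit of GABA A receptors, was picked out because the difference with swimming differed between the genotypes at an unadjusted p of at most 0.05, though not after adjustment over all genes. KE minus KO exceeded exercised WT minus WT by 0.17 on the log2 scale (limma, adjusted p = 0.593). With the slide as a block this was 0.13 (adjusted p = 0.482), no longer at an unadjusted p of at most 0.05. Exercised WT was below WT in 3 of 3 mice, by -0.16 without the block and -0.03 with it, while KE overlapped KO.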

How the results depend on the processing

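No other scaling, background correction, filter, probe rule, test or block brought a gene of the list under the adjusted threshold of 0.05 in the comparisons KO versus WT, KE versus exercised WT or the interaction. Elsewhere array weights, which let limma weigh arrays unequally, gave 3 such genes in KE versus KO, 4 in exercised WT versus WT and 5 in KE versus WT, out of 4664, 2165 and 4554 among all genes. The 2-group fit gave 2 in exercised WT versus WT and 3 in KE versus WT, out of 924 and 2555 among all genes. For the latter, the methods' t-test gave 1, out of 1762. Leaving out 1 array gave 0 to 3 in KE versus KO, 0 to 4 in exercised WT versus WT and 0 to 5 in KE versus WT, the highest count each time without KO replicate 3, out of 3934, 2654 and 3634. The 5 in KE versus WT include Glra3 and Abat. A probe of Glra3 was admitted through KE and 1 of Abat through the wild-type groups, so both are descriptions.

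By the screening criterion, in which 0 genes passed, testing without a detection filter gave 1 gene each in KO versus WT, exercised WT versus WT and KE versus WT and 2 each in KE versus KO, KE versus exercised WT and the interaction. Among all 27308 genes those were 179, 468, 546, 310, 296 and 370. The slide block gave 1 in KE versus KO and 1 in KE versus WT, out of 49 and 107. Both are Glra3, 1 of whose probes was admitted through KE alone, and are descriptions.

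Counts at an unadjusted p of at most 0.05 moved most, and are given with the count among all genes in brackets. In KO versus WT (1 of 1000) normexp (896), no filter (1349) and the slide block (1070) each gave 2, the brightest probe (935) and RefSeq probes alone (758) gave 0, and leaving out 1 array gave 1 to 3, the most without KO replicate 2 (1455). In KE versus KO (3 of 3744) the 2-group fit (2667) and array weights (7292) gave 5, the slide block 1 (1503), and leaving out 1 array 2 to 5, the most without KO replicate 3 (6699). In exercised WT versus WT (7 of 4504) the t-test gave 3 (4506) and the slide block 0 (1095). Leaving out 1 array gave 5 to 8 there (3169 to 5869). In KE versus exercised WT (1 of 1303) no filter gave 3 (1805) and the t-test 2 (1959). Detection on all 12 arrays (1197), the brightest probe (1313) and RefSeq probes alone (1196) gave 0. Leaving out 1 array gave 0 to 2, with 0 without exercised WT replicate 2 (1036) and 2 without exercised WT replicate 1 (1317). In KE versus WT (7 of 5274) the brightest probe (5572) and leaving out both mice with the highest striatal markers (3819) gave 4, and the slide block 1 (823). Leaving out 1 array gave 4 to 8 there (3822 to 6511), with 4 without WT replicate 3 or any 1 KE mouse. In the interaction (1 of 1472) 75th percentile scaling (1574), normexp (1830) and no filter (1816) gave 3. Array weights (2207) and leaving out both of those mice (1215) gave 2, and the slide block 0 (2025). Leaving out 1 array gave 0 to 3 (1030 to 2025), with 3 without KO replicate 2 (1400) or exercised WT replicate 3 (1459).

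Some differences changed sign. With the brightest probe, Abat differed by 0.034 in KO versus WT, 0.11 in exercised WT versus WT and 0.16 in KE versus WT, and with RefSeq probes alone by 0.017 in KE versus WT. Glra3 differed by -0.032 in KE versus KO with the brightest probe, with RefSeq probes and with detection on all 12 arrays, each of which leaves out its dim probe. With the slide block, Gabbr2, Gabra4 and Gabrr2 differed by -0.21, -0.068 and -0.21 in exercised WT versus WT and by -0.24, -0.043 and -0.14 in KE versus WT. The cause was not tested.

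With the replicate number as a block, 0 genes of the list had an adjusted p under 0.05, and 1, 3, 6, 1, 6 and 1 genes had an unadjusted p of at most 0.05 in KO versus WT, KE versus KO, exercised WT versus WT, KE versus exercised WT, KE versus WT and the interaction. Among all 18266 genes these were 1143, 3768, 4540, 1392, 5238 and 1619. The labels link same-numbered mice by the number alone. That number is the one in the sample titles, and the sample descriptions number some mice otherwise. The deviations of 18 same-numbered pairs correlated between -0.18 and 0.23, over 0.1 in 6, and 7 of 12 arrays correlated best with their own number.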
